A study of Mus musculus with 2 samples.

Results

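The microRNA genes Mir484, Mir320, Mir877, Mir702, Mir1224 and Mir1839 are classed as made without the Microprocessor. They were chosen by symbol and not by a rule on their level, though earlier results of these data were known. Of these 6 genes, 5 had a row in both deposited count tables, out of 1973 gene rows in all. Mir484 and Mir320 are classed as capped or short hairpins, Mir877, Mir702 and Mir1224 as mirtrons, and Mir1839 as snoRNA-like. Mir1839 has no count of its own here and was not analysed for its level. The tables come from microRNA-seq of hindbrain from healthy mouse embryos of strain B6NCrl at embryonic day 15.5, with both sexes pooled. They form 1 group of 2 biological replicates, each a pool, made from 62 embryos for replicate 2 and 78 embryos for replicate 1. No embryo lacked Drosha, Dgcr8 or Dicer, so the route by which each RNA was made was not tested, and the classes are background.

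Most microRNAs are freed by successive cuts. In the nucleus the Microprocessor, which consists of the RNase Drosha and its partner Dgcr8, frees a hairpin from a long primary transcript, and in the cytoplasm Dicer cuts off the loop. Mirtrons skip the nuclear cut: a short intron is spliced out, its lariat is opened, and the intron itself folds into the hairpin that Dicer cuts. In capped hairpins such as the precursor of miR-320, transcription begins at the hairpin itself, so that its 5′ end carries a cap and no Drosha cut is needed there. Some small nucleolar RNAs also yield Dicer products of microRNA size. Such RNAs became known in mouse because they persist in cells without Dgcr8.

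The 2 libraries held 10507754 reads in replicate 2 and 8327917 in replicate 1, of which 4839647 and 3937840 lay on the strand of a microRNA gene. Levels are given as CPM, counts per 1e6 of these gene reads. Where a gene has 0 reads, its level could still reach 0.620 CPM (replicate 2) or 0.762 CPM (replicate 1), the level of 3 reads. Of 8 hindbrain and neural microRNA genes, the highest was Mir10a, which lies among the Hox genes, at 81827 and 60695 CPM in replicates 2 and 1. Mir10b, Mir149, Mir137, Mir219a-2 and Mir9-3 lay between 506 and 48577 CPM, the last 2 sharing sequence with 2 and 3 other loci. Mir196b stood at 58.1 and 24.4 CPM. Mir124a-1, which shares sequence with 2 other loci, was the lowest at 4.34 and 3.56 CPM. Reads placed at several loci are given to no gene, so genes that share sequence may be more abundant than their counts show. Markers of other cells were read as well. The endothelial Mir126a stood at 22600 and 25702 CPM, and the mesenchymal Mir143, Mir145a and Mir214 lay between 79.2 and 6174 CPM. The erythroid Mir451a and Mir144 lay between 20.04 and 133 CPM, the leukocyte Mir223, Mir155 and Mir150 between 72.5 and 223 CPM, liver Mir122 at 57.0 and 35.6 CPM, and the epithelial Mir203, Mir205 and Mir200c between 20.1 and 529 CPM. Of the striated muscle genes, Mir206 stood at 23.3 and 27.2 CPM, and Mir1a-1 and Mir133a-1, which each share sequence with 2 other loci, had 0 reads in both libraries. The part of these other cells in the levels below was not tested.

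The mature sequences, which show the seeds and the ends of the mirtron arms, are given 5′ to 3′ from RefSeq (build GRCm38.p6) with the seed, bases 2 to 8, in capitals. The seed is the stretch by which a microRNA finds its targets. The table held entries for 4 of the 5 genes with a row, and Mir320 has no entry there.
miR-484: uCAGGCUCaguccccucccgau
miR-877-5p: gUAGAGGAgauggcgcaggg
miR-877-3p: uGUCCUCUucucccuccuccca
miR-702-5p: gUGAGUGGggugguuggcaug
miR-702-3p: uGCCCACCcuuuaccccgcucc
miR-1224-5p: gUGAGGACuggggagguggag
miR-1224-3p: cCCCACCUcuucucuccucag
miR-3102-5p: gUGAGUGGccaggguggggcug
The 7 mature RNAs of the members carry 7 different seeds, so none of them forms a seed family with another. Only miR-702-5p shares its seed, UGAGUGG, with another mouse microRNA of the table, miR-3102-5p. That RNA comes from Mir3102, which fills an intron of Arhgef17 on chromosome 7 and had 216 reads in replicate 2 and 174 in replicate 1 (44.4 ± 0.314 CPM, mean and SD, n = 2).

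All 3 of the mirtron 5p arms begin with GU, the letters with which most introns begin. Of the 618 annotated 5p arms of genes with a row, 34 begin so, or 5.50%. The hairpins, with the mature arms in capitals, show how far each arm reaches towards the ends.
Mir877: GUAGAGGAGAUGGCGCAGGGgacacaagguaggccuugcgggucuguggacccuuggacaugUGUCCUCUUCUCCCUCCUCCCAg
Mir702: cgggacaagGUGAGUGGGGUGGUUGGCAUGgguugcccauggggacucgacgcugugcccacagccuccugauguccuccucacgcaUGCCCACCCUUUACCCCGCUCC
Mir1224: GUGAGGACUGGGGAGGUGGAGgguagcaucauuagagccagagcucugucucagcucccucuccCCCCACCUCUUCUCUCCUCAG
Mir484: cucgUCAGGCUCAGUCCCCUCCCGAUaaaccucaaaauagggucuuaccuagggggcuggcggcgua
The hairpins of Mir877 and Mir1224 begin with GU and end with AG, whereas those of Mir702 and Mir484 do neither. Both pairs of letters were found in 15 of the 16 hairpins with a sequence whose ends match an intron's ends exactly, and in 3.45% of the 869 hairpins of genes with a row. A match of letters is a description of the annotated sequence. An arm or hairpin that starts or ends where an intron does carries the intron's letters by its position. These shares are therefore no separate support for the classes.

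The GENCODE M21 annotation places the mirtrons on their introns to the base. Mir877 (ENSMUSG00000077931.1; chromosome 17, 35960730 to 35960814, minus strand) is the whole of an 85 nt intron of Abcf1, which encodes a protein that acts in translation initiation. Mir1224 (ENSMUSG00000080669.1; chromosome 16, 20604452 to 20604536, plus strand) is likewise the whole of an 85 nt intron of Vwa5b2. Mir702 (ENSMUSG00000076240.1; chromosome 5, 136991433 to 136991541, plus strand) is annotated differently: its hairpin starts 9 nt inside the exon upstream of a 102 nt intron of Plod3, a collagen-modifying lysyl hydroxylase, and stops 2 nt before the intron does. Its 5p arm nevertheless starts at the first base of the intron, as do the 5p arms of the other mirtrons. The 3p arms end at the last base of the intron for miR-1224-3p, 1 nt before it for miR-877-3p and 2 nt before it for miR-702-3p. A gene row counts any short read over the hairpin, so arms are not separated, and pieces of the intron, or for Mir702 of the adjoining exon, cannot be told apart from mature RNA.

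**Figure D1:**
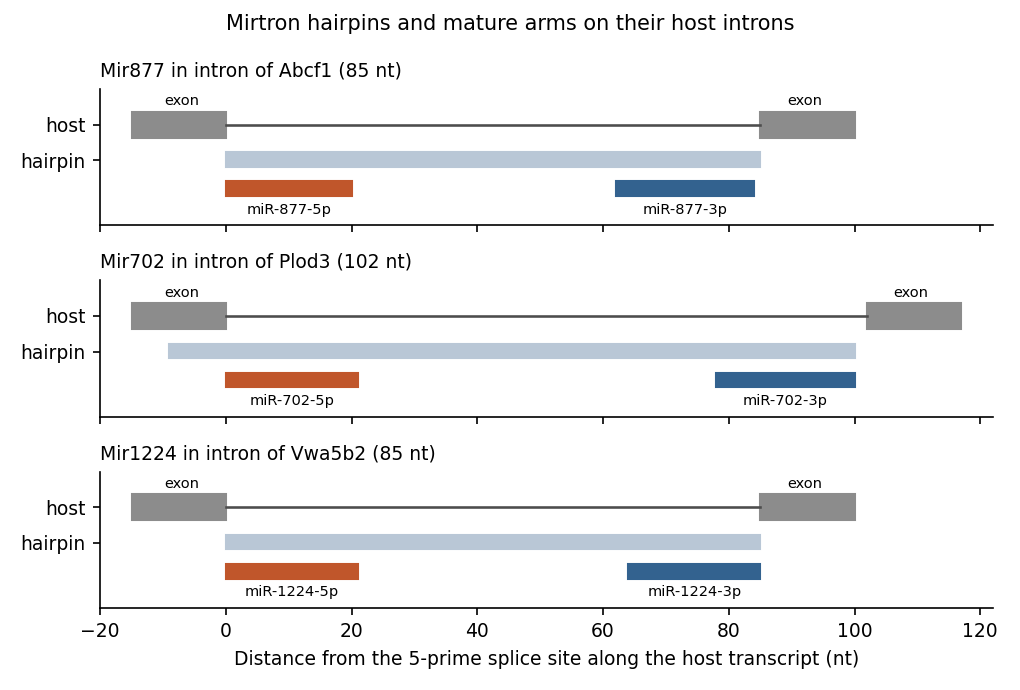
Each panel draws the host intron (line) with the adjoining exons in part (grey boxes), the annotated hairpin (pale bar), and the 5p (orange) and 3p (blue) mature arms, by distance in nt from the 5′ splice site. The hairpins of Mir877 and Mir1224 span the 85 nt introns from end to end, that of Mir702 starts 9 nt upstream of its 102 nt intron, and every 5p arm starts at the first base of the intron.

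The 3p arms of the mirtrons were richer in pyrimidines than most annotated arms, and their 5p arms varied more in base content. Introns carry a run of pyrimidines (C or U) before their 3′ end, and the 3p arm of a mirtron is cut from it. Pyrimidines made up 90.9% of miR-877-3p, 85.7% of miR-1224-3p and 81.8% of miR-702-3p, against a median of 59.1% (quartiles 47.6 to 68.2) over 589 annotated 3p arms. Of those arms, 99.7% had a smaller share than miR-877-3p, 97.6% than miR-1224-3p and 95.4% than miR-702-3p. Purines (A or G) made up 81.0% of miR-1224-5p, 80.0% of miR-877-5p and 66.7% of miR-702-5p, against a median of 54.5% over 587 annotated 5p arms. Of those arms, 2.04% had a larger share than miR-1224-5p, 2.90% than miR-877-5p and 18.9% than miR-702-5p. Among genes that fill an intron, Mir877 and Mir1224 included, the median was 73.9% pyrimidine in 15 annotated 3p arms, so all 3 members lay above that median. In 17 annotated 5p arms of that class the median was 75% purine (quartiles 70.0 to 80.0), and miR-702-5p lay below it.

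**Figure D2:**
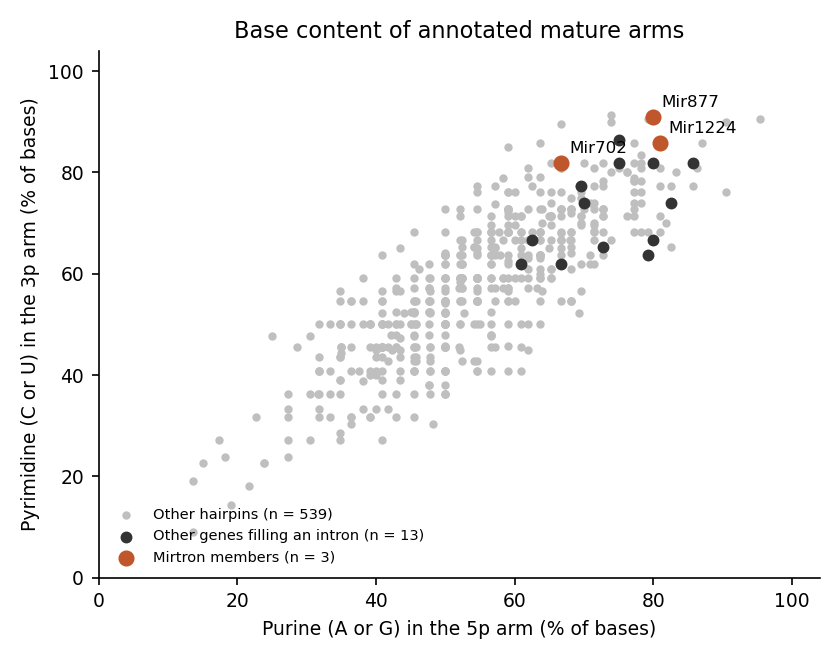
Each point is a hairpin with both arms annotated, with the purine share of the 5p arm (% of bases) across and the pyrimidine share of the 3p arm (% of bases) up; orange points are the 3 mirtron members, black points 13 other genes that fill an intron, and grey points 539 other hairpins. Mir877 and Mir1224 lie at the upper right, with at least 80.0% purine and 85.7% pyrimidine, and Mir702 lies to their left at 66.7% purine.

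The hairpins of the members were not alike in size or predicted stability. Mir484 has a hairpin of 67 nt, shorter than 76.8% of the 869 hairpins compared, while that of Mir702 at 109 nt is longer than 85.8% of them. The folding energy predicted by RNAfold was -0.37 kcal/mol per nt for Mir484, weaker than the median of -0.41. It was -0.43 for Mir877, -0.43 for Mir702 and -0.50 for Mir1224, each stronger than that median, and 16.0% of hairpins were stronger than Mir1224. Over the 321 hairpins with at least 10 reads in both libraries the median was -0.434. Mir877 at -0.429 was weaker than that, and Mir702 at -0.435 was close to it. Guanine and cytosine made up 58.2% of Mir484, 61.2% of Mir877, 60.0% of Mir1224 and 65.1% of Mir702, all above the median of 52.3%.

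Mir484 (ENSMUSG00000070074.1; chromosome 16, 14159626 to 14159692, plus strand) and Mir320 (ENSMUSG00000065528.1; chromosome 14, 70443510 to 70443591, plus strand) lie in no annotated transcript of their own strand. Both lie near the start of a gene on the other strand. Mir320 begins 63 nt from the annotated start of Polr3d, which encodes a subunit of RNA polymerase III, and Mir484 begins 359 nt from an annotated start of Marf1, which encodes a regulator of messenger RNA. The nearest start on the strand of Mir484 is that of Nde1, a gene needed by dividing neural progenitors, at 3649 nt, and that on the strand of Mir320 belongs to Phyhip at 13966 nt. No annotated start of another gene therefore lies within 20 nt of either hairpin, and the start of transcription itself was not measured. Mir484 also overlaps an exon of Marf1 on the other strand.

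Mir1839 (chromosome 7, 81529916 to 81529988, plus strand) lies over an RNA of another kind. Of its 73 nt, 66 overlap a gene of 127 nt on the same strand that the annotation types as a scaRNA, a small RNA of Cajal bodies, from 81529855 to 81529981. Both also lie in an exon of the long noncoding gene 2900076A07Rik.

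The capped or short hairpin genes had far more reads than the mirtrons in both pools. How evenly RNAs of different sequence are turned into reads was not tested. Mir484, whose product has been linked to neurogenesis in the mouse cortex, had 9234 reads in replicate 2 and 6957 in replicate 1, or 1908 and 1767 CPM (1837 ± 99.9 CPM, mean and SD, n = 2). Mir320, the best studied capped hairpin, had 3320 and 2799 reads, or 686 and 711 CPM (698 ± 17.5 CPM). These genes stood at ranks 74 and 108 of the 721 genes with a read, higher than 89.7% and 85.0% of them. In replicate 2 Mir484 exceeded Mir320 2.78-fold (95% exact interval 2.67 to 2.89) and in replicate 1 2.49-fold (2.38 to 2.60), and their order held in both libraries. In bulk tissue, fewer cells of a type and less RNA per cell cannot be told apart. All intervals cover counting error only. The reads carry no molecular identifiers here, so copies of 1 molecule cannot be told from separate molecules, and the intervals may be too narrow.

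The mirtrons lay close together at lower levels. Mir877 had 439 reads in replicate 2 and 303 in replicate 1, or 90.7 and 76.9 CPM (83.8 ± 9.73 CPM). Mir702 had 407 and 253 reads, or 84.1 and 64.2 CPM (74.2 ± 14.0 CPM). Mir1224 had 341 and 216 reads, or 70.5 and 54.9 CPM (62.7 ± 11.0 CPM). Each mirtron was higher in replicate 2, and the values of neighbouring mirtrons overlapped between the libraries. They held ranks 217, 224 and 234 of 721. Even the lowest mirtron value, 54.9 CPM, was far above the limit of 0.762 CPM that 0 reads allow in its library.

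The step between the classes was wide. The order among the mirtrons was the same in both libraries, but it was not firm between neighbours. Mir320 exceeded Mir877, the highest mirtron, 7.56-fold (6.84 to 8.37) in replicate 2 and 9.24-fold (8.20 to 10.4) in replicate 1. Mir877 over Mir702 was 1.08 (0.940 to 1.24) in replicate 2 and 1.20 (1.01 to 1.42) in replicate 1. Mir702 over Mir1224 was 1.19 (1.03 to 1.38) and 1.17 (0.973 to 1.41). For each of these neighbouring mirtron pairs the interval of 1 library included equal levels, so neither pair differed beyond counting error in both libraries.

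Scaling by hairpin length left the classes apart and turned that last pair round. Per 100 nt of hairpin, the mean level was 2742 CPM for Mir484, 852 for Mir320, 98.6 for Mir877, 73.7 for Mir1224 and 68.0 for Mir702. Where a read covers a mature RNA rather than a random part of the hairpin, length matters less than for messenger RNA. The counts do not show where on the hairpin a read lies.

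**Figure D3:**
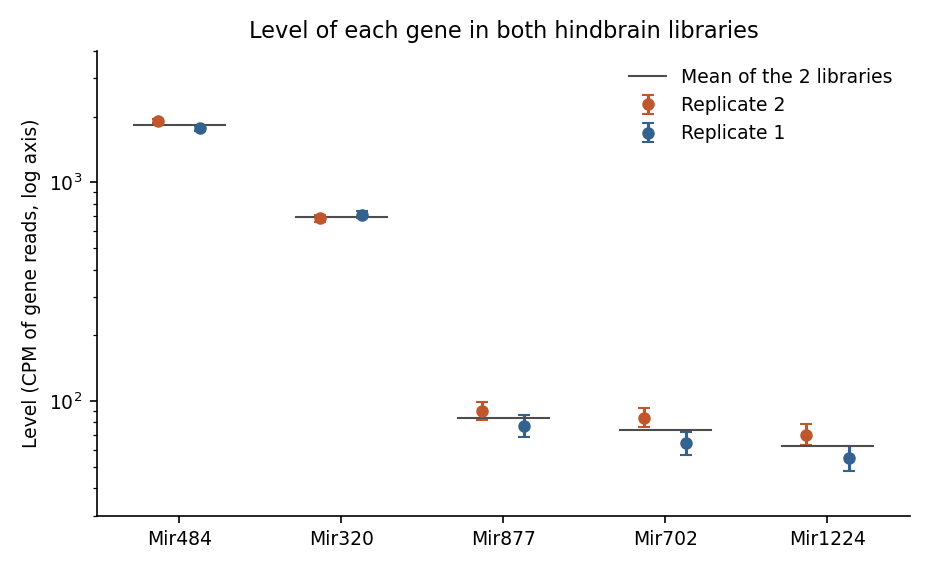
Level of each gene in CPM of gene reads on a log axis, in replicate 2 (orange) and replicate 1 (blue), with the mean as a line and 95% exact intervals for counting error as bars. Mir484 and Mir320 lie between 686 and 1908 CPM, and the 3 mirtrons between 54.9 and 90.7 CPM with each replicate 2 value above that of replicate 1.

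Together the 5 genes held a small share of the microRNA reads. They held 0.284% of gene reads in replicate 2 (95% exact interval 0.279 to 0.289) and 0.267% in replicate 1 (0.262 to 0.273). Mir484 and Mir320 supplied 91.4% of these reads in replicate 2 (90.9 to 91.8) and 92.7% in replicate 1 (92.2 to 93.2). The mirtrons held 0.0245% of gene reads in replicate 2 (0.0232 to 0.0260) and 0.0196% in replicate 1 (0.0182 to 0.0210). Mir484 alone therefore carried most of what was read from the whole set.

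In the order of levels the members had close neighbours. Next to Mir484 were Mir301 at 1984 ± 18.1 CPM above it and Mir125b-1 at 1816 ± 32.1 CPM below it. Mir125b-1 shares sequence with 1 other locus and Mir24-2, a neighbour of Mir877, with 2, so their levels are less certain. Next to Mir320 were Mir187 at 707 ± 24.1 CPM and Mir674 at 689 ± 14.1 CPM. Mir877 stood between Mir539 at 86.5 ± 12.7 CPM and Mir24-2 at 82.9 ± 11.7 CPM. Mir702 stood between Mir345 at 74.2 ± 6.94 CPM and Mir670 at 71.1 ± 8.56 CPM, and Mir1224 between Mir216a at 63.0 ± 12.3 CPM and Mir873a at 62.5 ± 0.423 CPM. The mean of each of these neighbours lies within 1 SD of its member except Mir301, which lay above Mir484 in both libraries. With 1 group there is no pattern across conditions by which genes could be called alike.

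**Figure D4:**
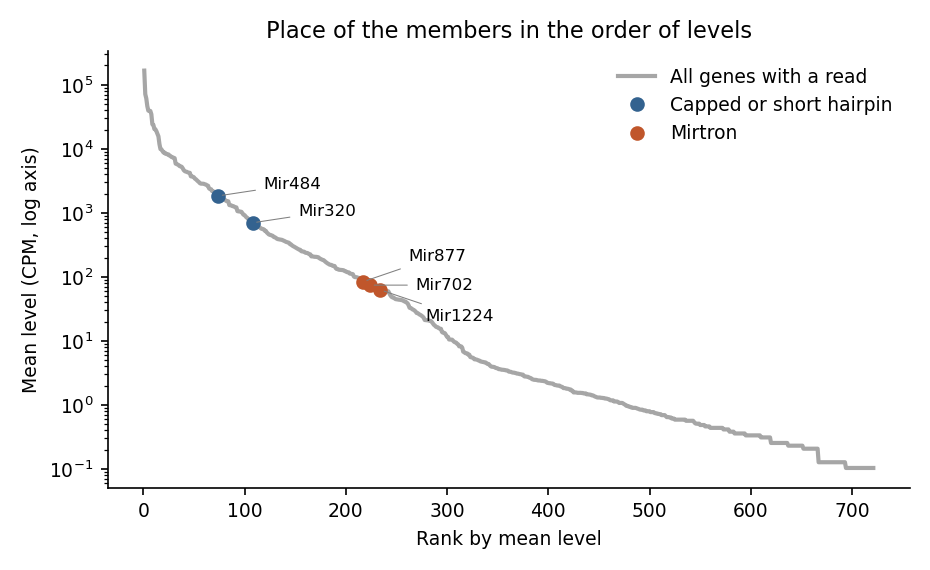
Mean level in CPM (log axis) of the 721 genes with a read against their rank (grey line), with the capped or short hairpin genes in blue and the mirtrons in orange. Mir484 and Mir320 lie at ranks 74 and 108 and the mirtrons together at ranks 217 to 234.

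None of the members had a read on the opposite strand in either library, although 67 of the 1973 genes had some. For Mir484 this covers an exon of Marf1, from which up to 3 reads per library could be missed. None of the members shares a stretch of 20 nt with another annotated microRNA gene. Reads placed at several loci made up 34.2% of replicate 2 and 35.4% of replicate 1 and are given to no gene. Copies elsewhere in the genome were not searched.

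The mirtron members were compared with other hairpins placed in the same way on an intron. By annotation, 23 genes have both hairpin ends within 5 nt of the ends of an intron on their strand, Mir877 and Mir1224 among them. Of these, 7 had at least 10 reads in both libraries, or 30.4%, against 372 of the 1894 genes with a known position, or 19.6%. Mir877 had the highest level of the 19 that had any read, and Mir1224 was the fourth. Between them stood Mir1981, in an intron of Marc2, at 67.8 ± 4.65 CPM, and Mir6944, in an intron of Dbn1, the gene of the dendritic spine protein drebrin, at 66.9 ± 12.4 CPM. Mir3102 followed at 44.4 CPM, and those below it were far lower, led by Mir6958 at 6.35 ± 0.366 CPM and with Mir3547 at 3.22 ± 0.468 CPM. Mean levels above that of Mir1224 were thus found for 2 other genes of this kind, and 4 of the 23 had no read.

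Hairpins that touch an intron at 1 end were more numerous and mostly little read. Of the 189 such genes, among them Mir702, 18 had at least 10 reads in both libraries, or 9.52%, and 52 had no read. The highest were Mir369 at 9258 ± 528 CPM, Mir382 at 8354 ± 422 CPM and Mir668 at 148 ± 8.80 CPM, all at introns of the long noncoding gene Mirg in the imprinted Dlk1-Dio3 region, followed by Mir702. Mir369 and Mir382 lie in introns of 247 and 236 nt, longer than their hairpins. By another criterion, 32 genes, which may also be in the intron classes as Mir3077 is, have a hairpin that starts within 20 nt of an annotated start of another gene. They were led by Mir125b-1, Mir760 at 378 ± 5.40 CPM and Mir206 at 25.3 ± 2.70 CPM. Neither Mir484 nor Mir320 is among them. No gene with a row overlaps an annotated snoRNA or scaRNA, so nothing in these tables stands beside Mir1839.

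The libraries were compared to see how far the members differ between pools of the same tissue. After TMM scaling, Mir702 was 1.29-fold higher in replicate 2, a log2 ratio of 0.37 (95% exact interval 0.14 to 0.60; adjusted p = 0.00480, exact binomial test). Mir1224 was 1.27-fold higher, at 0.34 (0.09 to 0.60; adjusted p = 0.0197, exact binomial test), and Mir484 1.07-fold, at 0.09 (0.05 to 0.14; adjusted p = 0.000182, exact binomial test). Mir877 at 0.22 (0.01 to 0.44; adjusted p = 0.0993) and Mir320 at -0.07 (-0.14 to 0.00; adjusted p = 0.146) did not pass the threshold of 0.05 in the exact binomial test. So 3 of the 5 members passed, all higher in replicate 2, beside 35.9% of the 426 genes tested in either direction, 15.3% higher and 20.7% lower in replicate 2. The split of these calls, 65 higher and 88 lower, was 72 higher and 65 lower when genes with at least 1 read were tested. With so many genes past a threshold that covers counting error only, such a call is common in these libraries.

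The sizes of these differences were moderate among genes. A larger ratio, towards replicate 2, was found for 14.8% of the genes tested above Mir702, 16.0% above Mir1224 and 21.6% above Mir877. The median log2 ratio of the 3 mirtron members was 0.34, against -0.01 over all genes tested. Of the 9 genes tested that fill an intron, 6 were higher in replicate 2, 2 of them past the threshold (Mir6944 at 0.36 and Mir1224), and 1, Mir1982, with 7 reads in replicate 2 and 22 in replicate 1, was lower past it at -1.97. Their median was 0.12. Without Mir877 and Mir1224, 4 of the other 7 were higher in replicate 2, with a median of 0.09. Over all 426 genes tested, 200 were higher in replicate 2. The class described next counts Mir702 among its genes. Of the 40 tested genes that touch an intron at 1 end, 26 were higher in replicate 2, 4 past the threshold and 2 lower past it, with a median of 0.22. Some marker genes differed as well. Mir10a (0.41), Mir196b (1.24) and Mir122 (0.66) were higher in replicate 2, and Mir126a (-0.20) and Mir144 (-1.05) were lower. Mir149 (-0.05) and Mir145a (0.01) differed little. Whether the pools differ in region or in cell types was not tested.

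When genes were allowed to vary between pools by an assumed amount, no member passed the threshold. At an assumed coefficient of variation of 0.1 (the estimate over the genes tested was 10.5%), edgeR's exact test called 0 of the 5 members and 1.41% of the 426 genes, 6 in number, with 32 at an unadjusted p under 0.05. Mir702 had an unadjusted p of 0.122 and an adjusted p of 0.799 in that exact test. At 0.2 it called 0 members and 0.00% of genes, with 12 genes at an unadjusted p under 0.05, none of them a member. With 1 library on each side, neither test compares conditions. The estimate of 10.5% took the difference between these same 2 libraries as the variation. A test at a value near it can call few genes, so it cannot decide whether a member differs between pools.

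**Figure D5:**
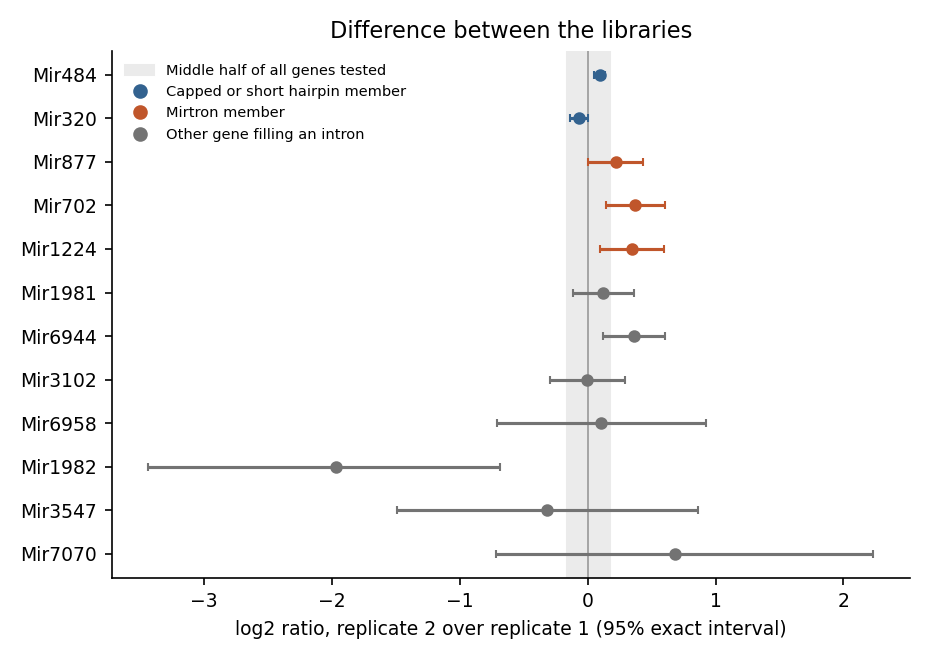
log2 ratio of replicate 2 over replicate 1 with 95% exact intervals (counting error only) for the members and for the 7 other tested genes that fill an intron; the grey band runs from the lower to the upper quartile of all 426 genes tested, -0.16 to 0.17. The 3 mirtrons lie right of the band at 0.22 to 0.37, Mir484 and Mir320 lie within it, and Mir1982 lies far left on 29 reads in all.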

How the data were processed

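The authors deposited read counts per microRNA gene for each library, on mm10 with annotation M4, as stated in the submitters' deposited notes. The aligner, trimming and counter: not given in the sources used here. A deposited table holds counts for both strands and for each strand; the strand with the larger total was used. Rows that name no gene held 53.0% of reads in replicate 2 and 51.6% in replicate 1 and were left out. Symbols and positions came from GENCODE M21 (GRCm38, the build of mm10) for 1894 of 1973 identifiers, and sequences from RefSeq. Genes with at least 10 reads in a library were tested, with TMM factors over those genes (edgeR 4.0.16, R 4.3.3), by exact two-sided binomial tests with Benjamini-Hochberg adjustment over all 426. Quasi-likelihood tests have no contrast here. Intervals are exact (Clopper-Pearson, 95%). The test was tested on simulated data. ViennaRNA 2.7.2, Python 3.11.15, scipy 1.17.1 and numpy 2.4.6 were used. Position classes took hairpin ends within 5 nt of an intron's ends, with at least 50% of the hairpin in the intron, or starts within 20 nt. Genes named are the members, their neighbours in level, the highest of each position class and genes sharing a seed. The members and lists were chosen with earlier results of these data known. Alternatives were DESeq2 1.42.0 size factors, total reads, other minimums, both strands, edgeR's exact test and single libraries.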

Additional observations from a re-analysis of the deposited data

How the results depend on the processing

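The members' ratios kept their direction under DESeq2 size factors, total reads, minimums of 1 or 100 reads and counts of both strands, and 3 or 4 members passed: Mir877 passed at the minimum of 100 reads (adjusted p = 0.0435, exact binomial test; 0.0745 to 0.0905 under the other alternatives of that test). With edgeR's exact test, which lets genes vary between pools, at coefficients of variation of 0.1 and 0.2, 6 and 0 genes passed in place of 153, and 0 members in place of 3. Of the calls, 65 were higher in replicate 2 and 88 lower under TMM, and 72 and 65 at a minimum of 1 read. Per all reads of the library, the members' share was 0.129% in place of 0.276%, and it was 0.267% to 0.284% in a single library. All 5 members kept at least 100 reads in both libraries. Genes filling an intron with at least 10 reads in both libraries numbered 12 within 20 nt (Mir702 then among them) in place of 7. Those touching it at 1 end numbered 11 at an exact match, 51 at 4 reads and 4 at 100 reads, in place of 18. Ranked among genes with at least 10 reads in a library, the percentile of the mirtrons was 45.1 to 49.1 in place of 67.5 to 69.9. No paired analysis was possible because there is 1 group. Without a library the ratio between libraries has no value. The mirtrons' 216 to 439 reads per library limit their precision.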
